A study of Mus musculus with 12 samples.

Results

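The 35 genes described here encode the proteins that bring glucose into a cell, the enzymes of glycolysis, the enzymes and carriers of lactate, and the enzymes of the pentose phosphate pathway. They were taken by gene symbol from a table of 47729 genes, and 34 of them passed the filter on low counts. The remaining gene was Fbp1, the gluconeogenic fructose-1,6-bisphosphatase that opposes phosphofructokinase, which had 0 to 11 counts in a library and was not tested. The cells were C57BL/6 mouse peritoneal macrophages, washed out of the peritoneum and kept because they adhered to the plate. TG macrophages came from mice given 3% thioglycollate, a sterile irritant broth that recruits macrophages, once, 4 days before collection. IL4c macrophages came from mice given an IL-4 complex, 5 ug of interleukin 4 with 25 ug of its antibody, 2 times, the last one 2 days before collection. Each kind was cultured for 24 h either untreated or with 20 ug/ml of SPARC. This secreted protein binds the extracellular matrix. The labels name no control protein for it. Each of the 4 groups held 3 libraries, numbered 1 to 3 by the labels, which do not say whether the numbers are separate animals. The p-values therefore measure the spread between these libraries, which may be technical in part.

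Glycolysis splits glucose into pyruvate in the cytosol and yields ATP without oxygen. Lactate dehydrogenase turns pyruvate into lactate to restore NAD+, and monocarboxylate transporters carry the lactate out. The oxidative arm of the pentose phosphate pathway leaves glycolysis at glucose-6-phosphate and makes NADPH, and its non-oxidative arm exchanges sugars with glycolysis and supplies ribose. Macrophages activated by inflammatory stimuli are known for high glucose uptake and lactate release, whereas IL-4-activated macrophages are known for oxidative metabolism.

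Library totals were 31501941 to 42288785 counts, so that 3 counts corresponded to 0.0707 to 0.0974 CPM (counts scaled to library size). All 8 macrophage markers had counts in all 12 libraries. They summed to 22098 to 34911 CPM in untreated TG libraries and 30334 to 31085 CPM with SPARC, and were lower with SPARC in IL4c libraries, at 12897 to 18785 CPM against 20533 to 27806 CPM. The 9 neutrophil markers summed to 7.09 to 11.7 CPM in untreated TG and 27.9 to 53.2 CPM in TG libraries with SPARC, and to 6.96 to 9.82 and 26.9 to 41.4 CPM in IL4c libraries. Of these markers S100a8, named here after its values were seen, had 210 to 1695 counts a library and the other 8 at most 85, with S100a9 and Ly6g at 0 counts in 6 and 9 libraries. In IL4c libraries the mesothelial and stromal markers were also higher with SPARC (60.5 to 112 CPM against 6.84 to 17.9 CPM), the eosinophil markers were lower (1.04 to 1.59 CPM against 3.72 to 5.01 CPM), and the B cell markers were lower in each numbered pair (81.3 to 184 CPM against 162 to 409 CPM). In TG libraries these 3 sums moved the same way within each numbered pair. The mesothelial and stromal markers went from 5.92, 130 and 113 CPM untreated to 24.9, 175 and 194 CPM with SPARC. The eosinophil markers went from 22.7, 8.13 and 8.17 to 9.63, 3.16 and 3.03 CPM, and the B cell markers from 2462, 272 and 285 to 1902, 176 and 214 CPM. The part of these shifts in the SPARC comparisons was not tested. Among TG libraries, both of those numbered 1 differed from the rest. The 12 B cell markers summed to 2462 CPM in the untreated one and 1902 CPM in the SPARC one, and to 176 to 285 CPM in the remaining 4. The 8 mesothelial and stromal markers summed to 5.92 and 24.9 CPM there and to 113 to 194 CPM in the remaining 4. The 10 T and NK cell markers summed to 13.9 and 22.9 CPM there and to 2.24 to 3.80 CPM in the remaining 4. For the 6 dendritic cell markers the sums were 41.5 and 79.5 CPM against 11.3 to 18.8 CPM. The part of these differences in the results was not tested, and the counts of genes below are given with and without these 2 libraries.

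Of the 27 tested genes of glucose uptake, glycolysis and lactate, 17 rose with SPARC in TG macrophages, and 13 rose and 2 fell in IL4c macrophages. Of the 7 pentose phosphate genes, 1 rose in TG macrophages, and 1 rose and 1 fell in IL4c macrophages. In TG macrophages 18 of the 34 tested genes were higher with SPARC and 0 were lower (edgeR quasi-likelihood test, Benjamini-Hochberg adjusted p under 0.05), while 2 lower ones had an unadjusted p under 0.05 and DESeq2 called 1 lower. Over all 15232 genes tested, 6.73% were higher and 4.52% lower in that comparison. In IL4c macrophages 14 of the 34 were higher and 3 lower, where 15.1% and 12.7% of all genes were (27.8% in either direction). The median log2 fold change of the 34 genes was 1.01 in TG and 0.63 in IL4c macrophages, beside −0.03 and −0.00 over all genes. In TG macrophages 21 of the 34 genes had all SPARC libraries above all untreated ones and 3 had them all below. Of all genes, 16.2% and 14.2% were ordered in these ways. In IL4c macrophages the counts were 17 and 5, where 25.5% and 24.8% of all genes were so ordered. The 18 genes called in TG macrophages were among the 21, but they were selected by a test on the same libraries. In bulk RNA, fewer cells of a type and less RNA per cell cannot be told apart.

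The libraries of an injection that share a number deviated together, so the same comparisons were also made within numbered pairs. This raised the counts to 23 higher and 1 lower in TG macrophages, where 14.3% and 13.1% of all genes were called, and to 24 higher and 5 lower in IL4c macrophages, where 22.8% and 22.4% were. Without both TG libraries numbered 1, the counts were 21 higher and 1 lower in TG and 20 higher and 4 lower in IL4c macrophages. The background was then 8.68% higher and 5.93% lower in TG and 21.7% higher and 20.3% lower in IL4c macrophages. Without both IL4c libraries numbered 3, Slc2a1, Gapdh, Ldha and Ldhb lost their calls in IL4c macrophages. Slc2a1 and Aldoa then lost theirs in TG macrophages. With the 2 TG groups fitted alone, 11 genes were higher in TG macrophages, where 2.58% of all genes were higher and 0.970% lower. When the 12 libraries were left out singly, 11 of the 18 TG calls and 10 of the 17 IL4c calls stood every time, and the other genes are named with their branch.

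**Figure D1:**
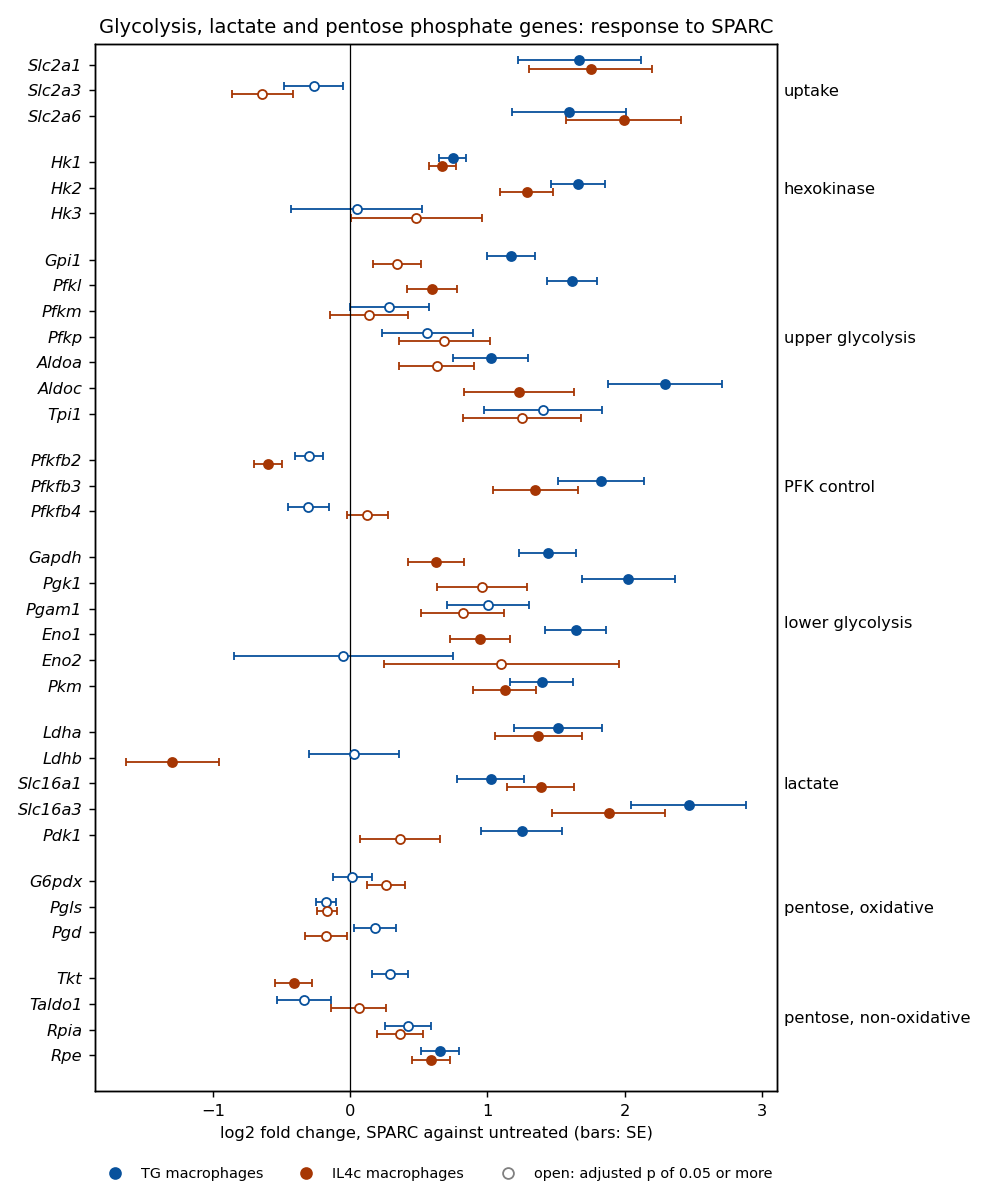
Log2 fold change of each of the 34 tested genes with SPARC against untreated, in TG (blue) and IL4c (brown) macrophages, ordered by branch; bars are standard errors and filled points have an adjusted p under 0.05. The points of the uptake, glycolysis and lactate branches lie mostly right of 0, up to 2.47 for Slc16a3, and those of the 7 pentose phosphate genes lie between −0.41 and 0.65.

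The promoters were searched for ACGTG, the core of the response element of hypoxia-inducible factor, a transcription factor known to act on glycolytic genes. RefSeq promoter windows (GRCm38.p6, 250 bases before to 50 after an annotated start) were found for 34 of the 35 genes, with 50 windows in all. ACGTG was present on either strand in 21 of these 50 windows, or 42.0%, and in 19.6% of all 32851 windows. It was found for 17 of the 34 genes, among them 1 of the 7 pentose phosphate genes. A match was present for 12 of the 18 genes called higher with SPARC in TG macrophages and absent for Slc2a6, Gpi1, Pfkl, Eno1, Pdk1 and Rpe, and it was present for 5 of the other 16 genes with a window, Hk3, Pfkm, Pfkfb2, Pgam1 and G6pdx. A gene with more than 1 window was counted if any window matched. These gene counts therefore cannot be set beside the 19.6% of windows, and the share over all genes was not counted. The bases before the start are shown 5′ to 3′ for 6 genes of uptake, glycolysis and lactate and 2 of the pentose phosphate pathway, chosen to show sequences with and without a match. Capitals mark ACGTG or its reverse complement.
Slc2a1: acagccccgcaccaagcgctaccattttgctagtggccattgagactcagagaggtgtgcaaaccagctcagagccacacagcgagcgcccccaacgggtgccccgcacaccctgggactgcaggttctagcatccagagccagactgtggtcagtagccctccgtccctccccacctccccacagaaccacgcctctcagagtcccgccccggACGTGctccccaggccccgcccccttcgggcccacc
Hk2: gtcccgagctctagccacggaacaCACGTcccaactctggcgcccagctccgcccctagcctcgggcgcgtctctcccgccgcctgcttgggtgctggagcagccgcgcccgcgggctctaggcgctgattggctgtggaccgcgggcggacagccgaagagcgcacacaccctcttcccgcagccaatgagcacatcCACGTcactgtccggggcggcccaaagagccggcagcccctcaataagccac
Pgk1: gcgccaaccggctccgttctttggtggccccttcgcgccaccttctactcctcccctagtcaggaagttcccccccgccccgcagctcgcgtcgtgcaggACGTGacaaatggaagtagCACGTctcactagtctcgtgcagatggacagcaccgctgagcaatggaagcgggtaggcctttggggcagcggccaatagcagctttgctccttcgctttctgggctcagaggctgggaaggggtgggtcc
Ldha: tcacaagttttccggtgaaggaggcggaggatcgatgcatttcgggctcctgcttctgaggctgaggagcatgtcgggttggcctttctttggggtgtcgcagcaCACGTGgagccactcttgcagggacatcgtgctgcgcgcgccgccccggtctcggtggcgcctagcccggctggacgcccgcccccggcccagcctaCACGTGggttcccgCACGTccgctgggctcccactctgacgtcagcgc
Slc16a3: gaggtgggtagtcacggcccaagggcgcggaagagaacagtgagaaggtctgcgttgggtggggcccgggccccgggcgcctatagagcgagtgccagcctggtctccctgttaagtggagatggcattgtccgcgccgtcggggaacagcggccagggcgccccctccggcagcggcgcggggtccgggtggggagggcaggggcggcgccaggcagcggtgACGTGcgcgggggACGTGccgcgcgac
Pfkl: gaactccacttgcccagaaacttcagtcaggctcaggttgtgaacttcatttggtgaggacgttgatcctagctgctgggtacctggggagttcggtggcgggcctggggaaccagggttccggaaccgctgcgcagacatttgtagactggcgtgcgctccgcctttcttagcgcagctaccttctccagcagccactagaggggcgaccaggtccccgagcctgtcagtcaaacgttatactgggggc
G6pdx: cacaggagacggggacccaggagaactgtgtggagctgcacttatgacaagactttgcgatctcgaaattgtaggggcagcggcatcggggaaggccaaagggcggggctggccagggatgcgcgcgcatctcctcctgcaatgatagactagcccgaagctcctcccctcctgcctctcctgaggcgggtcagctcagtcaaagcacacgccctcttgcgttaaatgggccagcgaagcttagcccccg
Tkt: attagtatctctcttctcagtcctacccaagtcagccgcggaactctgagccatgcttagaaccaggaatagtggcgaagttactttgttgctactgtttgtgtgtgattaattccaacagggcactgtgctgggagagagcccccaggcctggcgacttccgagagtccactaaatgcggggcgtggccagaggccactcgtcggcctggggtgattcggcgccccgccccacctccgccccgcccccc
The Slc2a1 sequence lies at chr4:119108495-119108744 on the plus strand and the Hk2 sequence at chr6:82774455-82774704 on the minus strand. The Pgk1 sequence lies at chrX:106186850-106187099 on the plus strand and the first of the 2 Ldha windows at chr7:46845554-46845803 on the plus strand. The Slc16a3 sequence lies at chr11:120948817-120949066 on the plus strand and the Pfkl sequence at chr10:78009808-78010057 on the minus strand. The G6pdx sequence lies at chrX:74428881-74429130 on the minus strand and the Tkt sequence at chr14:30548881-30549130 on the plus strand. The Ldha window held 5 matches, 4 of them in 2 copies of CACGTG, an E-box that reads the same on both strands and so counts 2 times, and the second Ldha window held 0. Pgk1, Hk2 and Slc16a3 held 2 matches each, Slc2a1 held 1, and Pfkl and Tkt held 0. The 1 match of G6pdx lies in the 50 bases after its start, which are not shown, so its printed bases have no capitals. The E-box itself was in 5 of the 50 windows and in 7.15% of all windows, and every E-box also contains ACGTG. The antioxidant-response core TGACNNNGC was in 6 of the 50 and in 12.4% of all, and the GC box GGGCGG was in 62.0% and 35.7%, including all 7 pentose phosphate genes. These matches describe letters in the windows and do not show binding.

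Of the glucose transporters, 2 of 3 rose in both kinds of macrophage. Slc2a1, which encodes GLUT1, the main transporter of activated macrophages (chr4:119108711-119137983, GRCm38), was at 28.1, 104 and 80.1 CPM in the untreated TG libraries and 167, 276 and 233 with SPARC, and at 112, 74.6 and 53.9 in untreated IL4c libraries and 332, 277 and 201 with SPARC. Every SPARC library was above every untreated library of its injection, and the lowest value was that of the untreated TG library numbered 1. Its log2 fold change, given here and below with its standard error (SE) at n = 3 libraries a group, was 1.67 ± 0.45 in TG macrophages (adjusted p = 0.04) and 1.75 ± 0.45 in IL4c macrophages (adjusted p = 0.0166). Slc2a6, which encodes GLUT6, a transporter of the lysosome, was at 38.8, 12.2 and 13.4 CPM in the untreated TG libraries and 82.99, 55.2 and 56.9 with SPARC, and at 24.6, 16.1 and 24.04 in untreated IL4c libraries and 78.2, 75.1 and 105 with SPARC. Again the groups did not overlap, and the untreated TG library numbered 1 was the highest of the untreated ones. Slc2a6 rose by 1.60 ± 0.41 in TG macrophages (adjusted p = 0.0357) and 1.99 ± 0.42 in IL4c macrophages (adjusted p = 0.00673). Slc2a3, the gene of the high-affinity GLUT3, was near the bottom of the range, at 3.63, 3.47 and 3.41 CPM in the untreated TG libraries and 3.63, 3.02 and 2.09 with SPARC, and at 1.53, 1.39 and 1.60 in untreated IL4c libraries and 0.923, 0.864 and 1.11 with SPARC. It did not pass the test, with −0.27 ± 0.21 (adjusted p = 0.48) and −0.64 ± 0.22 (adjusted p = 0.0556) in TG and IL4c macrophages, although its IL4c groups did not overlap, and within numbered pairs it was lower in IL4c macrophages (adjusted p = 0.034).

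In TG macrophages the call of Slc2a1 was lost without any one of TG SPARC 1, 2 or 3, TG untreated 3, IL4c SPARC 1, 2 or 3 or IL4c untreated 2 (adjusted p from 0.0506 to 0.12). In IL4c macrophages Slc2a1 lost its call without IL4c SPARC 1 or IL4c untreated 2 or 3 (adjusted p from 0.0573 to 0.0657). The TG call of Slc2a6 was lost without TG SPARC 1, 2 or 3, TG untreated 2 or 3, IL4c untreated 1 or IL4c SPARC 2 (adjusted p from 0.0535 to 0.109), and by total-count scaling (adjusted p = 0.0542). Conversely Slc2a3 was called lower in IL4c macrophages without TG SPARC 1 or 3 (adjusted p from 0.0314 to 0.0382).

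Hexokinases trap glucose in the cell by phosphorylating it, and 2 of the 3 genes rose in both kinds of macrophage. Hk2, the inducible hexokinase bound to mitochondria, was at 60.9, 95.1 and 74.3 CPM in the untreated TG libraries and 192, 286 and 249.9 with SPARC, and at 91.3, 75.7 and 65.4 in untreated IL4c libraries and 199, 185 and 182 with SPARC. The lowest SPARC library, at 182 CPM, was well above the highest untreated one, at 95.1 CPM. Hk2 rose by 1.66 ± 0.19 in TG macrophages (adjusted p = 0.00129) and 1.29 ± 0.19 in IL4c macrophages (adjusted p = 0.00122). Hk1, the constitutive form, was at 80.8, 80.5 and 76.5 CPM in the untreated TG libraries and 124, 142 and 133 with SPARC, and at 99.1, 88.1 and 86.1 in untreated IL4c libraries and 159, 149.8 and 126 with SPARC. Its spread within a group was small, its groups did not overlap, and it rose by 0.75 ± 0.10 in TG macrophages (adjusted p = 0.0024) and 0.67 ± 0.10 in IL4c macrophages (adjusted p = 0.00112). Hk3, the myeloid hexokinase, was at 147, 651 and 473 CPM in the untreated TG libraries and 231, 565 and 516 with SPARC, and at 234, 192 and 307 in untreated IL4c libraries and 348, 308 and 367 with SPARC. The 2 TG libraries numbered 1 were the lowest of the TG libraries, with and without SPARC, and the TG groups overlapped while the IL4c groups did not. Hk3 did not pass the test in either kind, with 0.05 ± 0.48 (adjusted p = 0.967) and 0.48 ± 0.48 (adjusted p = 0.499), but was called higher in IL4c macrophages within numbered pairs (adjusted p = 0.038). The Hk1 and Hk2 calls held when any 1 library was left out.

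Of the 7 genes from glucose-6-phosphate isomerase to triose-phosphate isomerase, 4 rose in TG and 2 in IL4c macrophages. Gpi1, glucose-6-phosphate isomerase, was at 359.8, 346 and 288 CPM in the untreated TG libraries and 664, 815 and 759 with SPARC, and at 639.7, 556 and 465 in untreated IL4c libraries and 804, 742 and 556 with SPARC. It rose in TG macrophages, where the groups were far apart, by 1.17 ± 0.18 (adjusted p = 0.00425). In IL4c macrophages the groups overlapped and the change was 0.34 ± 0.17 (adjusted p = 0.176), with an adjusted p of 0.0382 within numbered pairs. Pfkl, the liver-type subunit of phosphofructokinase, the committed step of glycolysis, was at 116, 120.4 and 103 CPM in the untreated TG libraries and 323, 336 and 382 with SPARC, and at 303, 284 and 196 in untreated IL4c libraries and 434, 437 and 313 with SPARC. The untreated IL4c libraries were already above the untreated TG ones, and the 2 SPARC groups overlapped. Pfkl rose by 1.62 ± 0.18 in TG macrophages (adjusted p = 0.00113) and 0.60 ± 0.18 in IL4c macrophages (adjusted p = 0.0328). The muscle-type Pfkm stayed at 3.49 to 9.60 CPM over all libraries and did not pass the test, with 0.28 ± 0.29 (adjusted p = 0.589) and 0.14 ± 0.28 (adjusted p = 0.758). The platelet-type Pfkp was at 45.6, 106 and 86.7 CPM in the untreated TG libraries and 72.1, 159 and 121 with SPARC, and at 69.8, 53.4 and 79.1 in untreated IL4c libraries and 114, 96.2 and 115 with SPARC, so that each SPARC library was above the untreated library of its own number. Unpaired, Pfkp changed by 0.56 ± 0.33 (adjusted p = 0.319) and 0.69 ± 0.33 (adjusted p = 0.154) and did not pass, whereas within numbered pairs it was called higher in both (adjusted p = 0.00193 in TG and 4.00e-04 in IL4c macrophages).

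Aldolase splits fructose-1,6-bisphosphate, and its ubiquitous form Aldoa was at 717, 1255 and 1021 CPM in the untreated TG libraries and 1459.7, 2371 and 2253 with SPARC, and at 1930.00, 1613 and 1377 in untreated IL4c libraries and 2984, 2718 and 1910.2 with SPARC. Aldoa rose in TG macrophages by 1.02 ± 0.27 (adjusted p = 0.0391), while its change in IL4c macrophages, where the groups overlapped, was 0.63 ± 0.27 (adjusted p = 0.112) and was called within numbered pairs (adjusted p = 0.00217). Aldoc, the brain-type aldolase, was at 6.27, 5.19 and 4.15 CPM in the untreated TG libraries and 19.9, 29.1 and 27.7 with SPARC, and at 18.98, 15.9 and 9.21 in untreated IL4c libraries and 47.9, 40.4 and 15.1 with SPARC. The IL4c groups of Aldoc overlapped through the SPARC library numbered 3, and Aldoc rose by 2.29 ± 0.42 in TG macrophages (adjusted p = 0.0092) and 1.23 ± 0.40 in IL4c macrophages (adjusted p = 0.0452). Tpi1, triose-phosphate isomerase, was at 156, 440.05 and 353 CPM in the untreated TG libraries and 467, 1077 and 972 with SPARC, and at 408, 317 and 256 in untreated IL4c libraries and 959, 879 and 497 with SPARC. Its TG groups did not overlap although the SPARC library numbered 1 was far below the other 2. Tpi1 missed the threshold in both, with 1.41 ± 0.43 (adjusted p = 0.0653) and 1.25 ± 0.43 (adjusted p = 0.0552), and passed in both within numbered pairs (adjusted p = 3.65e-04 and 2.59e-04).

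In this stretch of the pathway single libraries decided several calls. In TG macrophages Aldoa lost its call without any one of TG untreated 1, 2 or 3, TG SPARC 2 or 3, IL4c untreated 1 or 2 or IL4c SPARC 1 or 2 (adjusted p from 0.0511 to 0.134). The Aldoc call in IL4c macrophages was lost without TG untreated 2 or 3, TG SPARC 2 or 3, IL4c untreated 1, 2 or 3 or IL4c SPARC 1 or 2 (adjusted p from 0.0551 to 0.155). Pfkl was no longer called in IL4c macrophages without IL4c SPARC 1 or 2 or IL4c untreated 2 or 3 (adjusted p from 0.0638 to 0.106). In the other direction, Tpi1 was called in TG macrophages without TG SPARC 1 (adjusted p = 0.04) and in IL4c macrophages without TG untreated 1 or TG SPARC 1 (adjusted p from 0.0254 to 0.0376). Pfkm was called in TG macrophages without TG untreated 1 (adjusted p = 0.0484).

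The PFKFB enzymes set the level of fructose-2,6-bisphosphate, the strongest activator of phosphofructokinase, and their 3 tested genes moved apart. Pfkfb3, the form with the highest kinase to phosphatase ratio, was at 156, 83.7 and 93.3 CPM in the untreated TG libraries and 524, 301 and 356 with SPARC, and at 147, 169 and 95.6 in untreated IL4c libraries and 361, 409 and 277 with SPARC. No untreated library reached the lowest SPARC library of its injection, and Pfkfb3 rose by 1.83 ± 0.31 in TG macrophages (adjusted p = 0.00719) and 1.35 ± 0.31 in IL4c macrophages (adjusted p = 0.0104). Pfkfb2, the heart-type form, was at 26.7, 20.8 and 20.2 CPM in the untreated TG libraries and 19.2, 17.6 and 18.1 with SPARC, and at 31.6, 31.6 and 29.6 in untreated IL4c libraries and 20.04, 21.2 and 19.8 with SPARC. All SPARC libraries of Pfkfb2 were below all untreated ones of the same injection. It fell by 0.60 ± 0.10 (adjusted p = 0.00224) in IL4c macrophages, and in TG macrophages it changed by −0.30 ± 0.10 (adjusted p = 0.0877), or an adjusted p of 0.0306 within numbered pairs. Pfkfb4 was at 47.7, 47.3 and 46.1 CPM in the untreated TG libraries and 29.04, 42.5 and 42.6 with SPARC, and at 31.9, 29.7 and 33.2 in untreated IL4c libraries and 30.9, 31.6 and 40.9 with SPARC and did not pass the test in either kind, with −0.31 ± 0.15 (adjusted p = 0.231) and 0.12 ± 0.15 (adjusted p = 0.586), although its TG groups did not overlap. Fbp1 had 2, 0 and 0 counts in untreated TG, 1, 0 and 0 in TG with SPARC, 0, 0 and 1 in untreated IL4c and 1, 3 and 11 in IL4c macrophages with SPARC.

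The 6 genes from glyceraldehyde-3-phosphate dehydrogenase to pyruvate kinase form the part of glycolysis that yields ATP, and 4 rose in TG and 3 in IL4c macrophages. Gapdh, often taken as a reference gene, was at 557, 686 and 555 CPM in the untreated TG libraries and 1334, 1828 and 1715 with SPARC, and at 1192, 906 and 834 in untreated IL4c libraries and 1766, 1557 and 1188 with SPARC. Its TG groups were far apart and its IL4c groups touched, since the SPARC library numbered 3 was just below the untreated library numbered 1. Gapdh rose by 1.44 ± 0.21 in TG macrophages (adjusted p = 0.00359) and 0.62 ± 0.20 in IL4c macrophages (adjusted p = 0.0458). Pgk1, phosphoglycerate kinase, whose promoter is printed above, was at 177, 341 and 225 CPM in the untreated TG libraries and 731, 1228 and 1075 with SPARC, and at 578, 419 and 322 in untreated IL4c libraries and 1062, 928 and 575 with SPARC. In TG macrophages Pgk1 rose by 2.03 ± 0.34 (adjusted p = 0.00646). In IL4c macrophages each SPARC library was above the untreated library of its number, the groups just overlapped, and the change was 0.96 ± 0.33 (adjusted p = 0.0552), which passed within numbered pairs (adjusted p = 5.08e-04). Eno1, the ubiquitous enolase, was at 549, 693 and 537 CPM in the untreated TG libraries and 1602, 2049.6 and 1905 with SPARC, and at 973, 778 and 658 in untreated IL4c libraries and 1869, 1612 and 1156 with SPARC. Its groups did not overlap within an injection, and it rose by 1.64 ± 0.22 in TG macrophages (adjusted p = 0.00244) and 0.95 ± 0.22 in IL4c macrophages (adjusted p = 0.00965). Pkm, which encodes the muscle-type pyruvate kinase and whose splice forms the gene counts do not separate, was at 628, 1150.02 and 901 CPM in the untreated TG libraries and 2110.4, 2547 and 2393 with SPARC, and at 1210.5, 1019 and 938 in untreated IL4c libraries and 2539.8, 2519.97 and 1852 with SPARC. The lowest SPARC library of Pkm, at 1852 CPM, was above the highest untreated one, at 1210.5 CPM, and the gene rose by 1.40 ± 0.23 in TG macrophages (adjusted p = 0.0058) and 1.13 ± 0.23 in IL4c macrophages (adjusted p = 0.00554).

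Pgam1, phosphoglycerate mutase, was at 289, 682 and 608 CPM in the untreated TG libraries and 767, 1245 and 1155 with SPARC, and at 589.7, 465 and 544 in untreated IL4c libraries and 1044, 984 and 792 with SPARC. It missed the threshold with 1.00 ± 0.30 (adjusted p = 0.0595) and 0.82 ± 0.30 (adjusted p = 0.0676), and passed within numbered pairs (adjusted p = 0.00223 and 0.00328). Eno2, the neuronal enolase, was at 2.07, 19.7 and 19.8 CPM in the untreated TG libraries and 5.67, 16.2 and 18.3 with SPARC, and at 0.617, 0.636 and 2.16 in untreated IL4c libraries and 1.98, 1.38 and 4.04 with SPARC. It was low in both TG libraries numbered 1 and in all IL4c libraries, as were the summed mesothelial and stromal markers in the untreated ones of these (5.92 CPM in the TG library and 6.84 to 17.9 CPM in untreated IL4c libraries). Those markers reached 60.5 to 112 CPM in IL4c libraries with SPARC, and their part in the result was not tested. Eno2 did not pass the test, with −0.05 ± 0.80 (adjusted p = 0.979) and 1.10 ± 0.86 (adjusted p = 0.38). Gapdh in IL4c macrophages lost its call without any one of TG untreated 2 or 3, TG SPARC 2 or 3, IL4c SPARC 1 or 2 or IL4c untreated 2 or 3 (adjusted p from 0.0615 to 0.174), and with RLE scaling (adjusted p = 0.0536). Pgk1 gained a call in IL4c macrophages without TG untreated 1, TG SPARC 1, IL4c untreated 1 or IL4c SPARC 3 (adjusted p from 0.0415 to 0.0497). Pgam1 was called in TG macrophages without TG SPARC 1 (adjusted p = 0.0496) and in IL4c macrophages without TG untreated 1 (adjusted p = 0.0138). Processed copies share reads with some of these genes. The Pgk1 copies Pgk1-ps3 and Pgk1-rs7 held 4.29% to 10.4% as many counts as Pgk1. Eno1b held 1.97% to 3.68% of Eno1 and the Pgam1 copies 1.84% to 2.46% of Pgam1, while the Gapdh copies held at most 0.0551%.

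**Figure D2:**
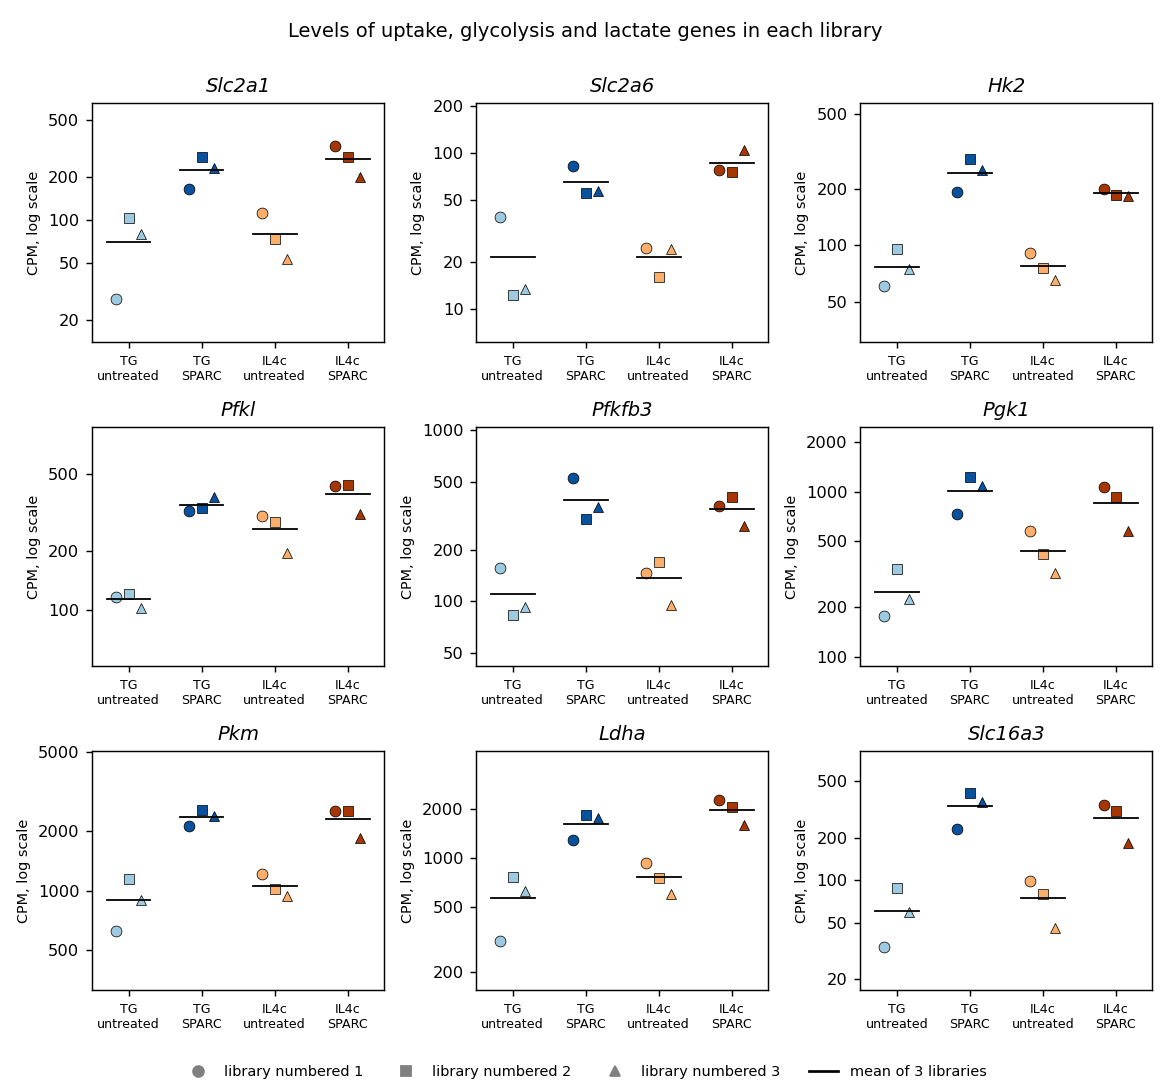
CPM of 9 genes of uptake, glycolysis and lactate in each of the 12 libraries on a log scale, with the group mean as a line and the library number as the symbol. In each panel the SPARC libraries lie above the untreated libraries of the same injection, except for Pgk1 in IL4c macrophages, where the SPARC library numbered 3 (575 CPM) lies just below the untreated library numbered 1 (578 CPM).

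Of the 5 genes of lactate and pyruvate, 4 rose in TG macrophages, and 3 rose and 1 fell in IL4c macrophages. Ldha, the lactate dehydrogenase subunit that favours lactate formation, was at 309.9, 770.3 and 628 CPM in the untreated TG libraries and 1285, 1832 and 1762 with SPARC, and at 928, 753 and 606 in untreated IL4c libraries and 2274, 2050.2 and 1595 with SPARC. Its groups did not overlap within an injection and it rose by 1.51 ± 0.32 in TG macrophages (adjusted p = 0.016) and 1.37 ± 0.32 in IL4c macrophages (adjusted p = 0.0105). Slc16a3, which encodes MCT4, the carrier of lactate-exporting cells, was at 33.5, 87.8 and 59.6 CPM in the untreated TG libraries and 232, 412 and 357 with SPARC, and at 99.3, 80.05 and 46.3 in untreated IL4c libraries and 343, 307 and 183 with SPARC. Slc16a3 had the highest fold change of the 34 genes in TG macrophages, 5.53-fold, with a log2 fold change of 2.47 ± 0.42 in TG macrophages (adjusted p = 0.0068) and 1.88 ± 0.41 in IL4c macrophages (adjusted p = 0.00806). Slc16a1, which encodes MCT1, a carrier that works in both directions, was at 11.97, 20.2 and 22.2 CPM in the untreated TG libraries and 47.96, 32.02 and 30.4 with SPARC, and at 37.8, 31.6 and 27.5 in untreated IL4c libraries and 86.1, 91.3 and 76.4 with SPARC. The TG library with SPARC numbered 1 was the highest of its group. Slc16a1 rose by 1.02 ± 0.24 in TG macrophages (adjusted p = 0.0259) and 1.39 ± 0.24 in IL4c macrophages (adjusted p = 0.00285). Bsg, which encodes basigin, the chaperone that takes both carriers to the membrane, is not one of the 35 genes, and it rose by 0.99 ± 0.18 (adjusted p = 0.00989) in TG and 0.91 ± 0.18 (adjusted p = 0.00529) in IL4c macrophages.

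Ldhb, the subunit that favours pyruvate formation, was at 22.2, 16.3 and 12.3 CPM in the untreated TG libraries and 11.7, 19.4 and 20.6 with SPARC, and at 4.97, 11.1 and 11.1 in untreated IL4c libraries and 3.45, 3.60 and 4.01 with SPARC. In IL4c macrophages all SPARC libraries were below all untreated ones and Ldhb fell by 1.30 ± 0.34 (adjusted p = 0.0182). In TG macrophages the Ldhb groups overlapped, with 0.03 ± 0.33 (adjusted p = 0.973), and the test of the difference between the 2 responses gave −1.32 ± 0.47 (adjusted p = 0.345). Pdk1, the kinase that turns off pyruvate dehydrogenase, was at 48.3, 49.9 and 43.7 CPM in the untreated TG libraries and 86.8, 132 and 119 with SPARC, and at 110.1, 92.9 and 57.6 in untreated IL4c libraries and 139, 128 and 67.98 with SPARC. Pdk1 rose in TG macrophages by 1.25 ± 0.30 (adjusted p = 0.0256), without overlap. In IL4c macrophages its groups overlapped and the change was 0.36 ± 0.29 (adjusted p = 0.397), or an adjusted p of 0.0464 within numbered pairs.

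Without TG SPARC 2 or 3 or TG untreated 3 (adjusted p from 0.0538 to 0.0577), Ldha was no longer called in TG macrophages, and without both IL4c libraries numbered 3 it was not called in IL4c macrophages (adjusted p = 0.0594). Pdk1 lost its TG call without TG untreated 2 or 3 or TG SPARC 2 or 3 (adjusted p from 0.0639 to 0.0894). For Slc16a1 the same happened without TG SPARC 1 or TG untreated 2 (adjusted p from 0.0516 to 0.0724). Ldhb lost its IL4c call without IL4c SPARC 1 or 2 or IL4c untreated 2 or 3 (adjusted p from 0.0591 to 0.0728).

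The pentose phosphate genes called with SPARC were 1 of 7 in TG macrophages, which rose, and 2 of 7 in IL4c macrophages, of which 1 rose and 1 fell. The IL4c shares were near those of all genes (15.1% higher and 12.7% lower), and in TG macrophages 6.73% of all genes were higher. Within numbered pairs 3 of the 7 rose in TG macrophages, where 14.3% of all genes were called higher and 13.1% lower. In IL4c macrophages 3 rose and 2 fell within numbered pairs, where 22.8% and 22.4% were called. The 3 genes of the oxidative arm did not pass the test in either kind. G6pdx, glucose-6-phosphate dehydrogenase, the gate of the pathway, was at 212, 203 and 182 CPM in the untreated TG libraries and 217, 202 and 184 with SPARC, and at 186, 187 and 231 in untreated IL4c libraries and 214, 221 and 290.00 with SPARC. Its TG groups were nearly the same number by number, with 0.02 ± 0.14 (adjusted p = 0.962). In IL4c macrophages each SPARC library of G6pdx was above the untreated one of its number, and the change of 0.26 ± 0.14 (adjusted p = 0.192) was called within numbered pairs (adjusted p = 0.0113). Pgls, the lactonase that follows, was at 41.04, 42.4 and 43.8 CPM in the untreated TG libraries and 35.4, 37.5 and 39.9 with SPARC, and at 38.6, 37.3 and 37.6 in untreated IL4c libraries and 36.4, 32.99 and 31.2 with SPARC. It was lower in every SPARC library than in any untreated one of its injection, by a small amount that did not pass the test, −0.17 ± 0.07 (adjusted p = 0.157) and −0.17 ± 0.07 (adjusted p = 0.103), although within numbered pairs it did in IL4c macrophages (adjusted p = 0.0472). Pgd, 6-phosphogluconate dehydrogenase, the other NADPH-forming enzyme of the arm, was at 395, 394 and 373 CPM in the untreated TG libraries and 522, 392 and 401 with SPARC, and at 303, 322 and 394 in untreated IL4c libraries and 275, 276 and 351 with SPARC. Its groups overlapped in both kinds, with 0.18 ± 0.15 (adjusted p = 0.51) and −0.18 ± 0.15 (adjusted p = 0.43).

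In the non-oxidative arm Rpe, ribulose-phosphate 3-epimerase, was at 39.9, 38.4 and 38.03 CPM in the untreated TG libraries and 75.04, 54.4 and 53.7 with SPARC, and at 44.5, 41.2 and 48.3 in untreated IL4c libraries and 63.5, 60.7 and 77.2 with SPARC. No SPARC library overlapped the untreated ones, and Rpe rose by 0.65 ± 0.14 in TG macrophages (adjusted p = 0.016) and 0.59 ± 0.14 in IL4c macrophages (adjusted p = 0.011). Rpia, ribose-5-phosphate isomerase, was at 20.4, 15.02 and 14.9 CPM in the untreated TG libraries and 28.6, 19.4 and 19.4 with SPARC, and at 21.6, 21.1 and 18.96 in untreated IL4c libraries and 26.3, 25.2 and 27.7 with SPARC. It did not pass the test, with 0.42 ± 0.17 (adjusted p = 0.14) and 0.36 ± 0.17 (adjusted p = 0.137), but was called higher within numbered pairs (adjusted p = 0.00899 and 0.00842). Tkt, transketolase, which links the pathway back to glycolysis, was at 282, 244 and 250.03 CPM in the untreated TG libraries and 345, 298 and 304 with SPARC, and at 291, 299 and 368 in untreated IL4c libraries and 231, 212 and 277 with SPARC. In TG macrophages all SPARC libraries of Tkt were above the untreated ones, with a change of 0.29 ± 0.13 (adjusted p = 0.195) that passed within numbered pairs (adjusted p = 0.0158). In IL4c macrophages the order was the opposite and Tkt fell by 0.41 ± 0.13 (adjusted p = 0.0415). The difference between these 2 responses, −0.70 ± 0.19 (adjusted p = 0.229), did not pass the main test and passed within numbered pairs (adjusted p = 0.0211). Taldo1, transaldolase, was at 203, 360.2 and 309.9 CPM in the untreated TG libraries and 249.2, 227 and 215 with SPARC, and at 171, 159 and 225 in untreated IL4c libraries and 192, 178 and 209 with SPARC. The untreated TG library numbered 1 was the lowest of the 6 TG libraries, and the other 2 untreated ones were the highest. Taldo1 did not pass the test, with −0.34 ± 0.20 (adjusted p = 0.321) and 0.06 ± 0.20 (adjusted p = 0.853).

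Rpe lost its TG call without TG untreated 3 (adjusted p = 0.0517) and its IL4c call without IL4c untreated 2 (adjusted p = 0.0503). The IL4c call of Tkt was lost without any one of TG untreated 3, TG SPARC 3, IL4c untreated 1, 2 or 3 or IL4c SPARC 1 or 2 (adjusted p from 0.0515 to 0.148), and by total-count scaling (adjusted p = 0.0662). Without TG untreated 1 (adjusted p = 0.0309), Rpia was called higher in TG macrophages, and it was called higher in IL4c macrophages without TG SPARC 1 (adjusted p = 0.0336). Taldo1 was called lower in TG macrophages without TG untreated 1 (adjusted p = 0.042).

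**Figure D3:**
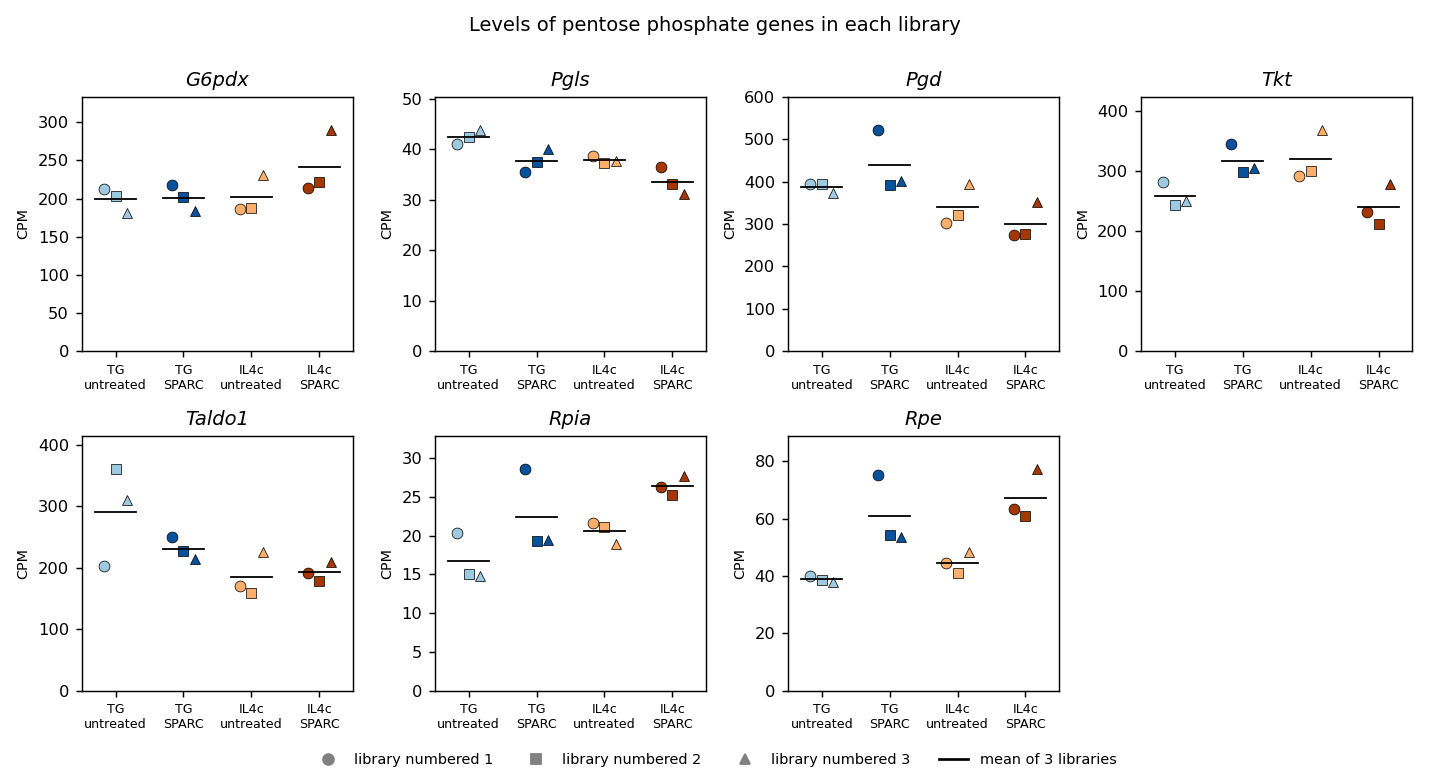
CPM of the 7 pentose phosphate genes in each of the 12 libraries, with the group mean as a line and the library number as the symbol; each axis starts at 0. Rpe is higher in every SPARC library than in the untreated libraries of its injection, and Tkt is higher with SPARC in TG but lower with SPARC in IL4c macrophages.

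Levels of different genes were compared per length, as FPKM (fragments scaled to gene length and library size; mean ± SD, n = 3). In untreated TG macrophages Aldoa was the most abundant of the 35 genes at 736 ± 173 FPKM, followed by Gapdh at 515 ± 51.4, Ldha at 407 ± 157 and Pkm at 395 ± 101, and the last 2 did not differ beyond their spread. With SPARC the TG values were 1436 ± 329.7 for Aldoa, 1337 ± 195 for Gapdh, 1118 ± 187 for Ldha, 999 ± 77.7 for Pkm and 973 ± 103 for Eno1. Aldoa also led in IL4c macrophages, at 1129 ± 193 untreated and 1751 ± 388 with SPARC, where Ldha came next at 1331 ± 234. The pentose phosphate genes were below these leading genes, with Taldo1 at 269.7 ± 63.4 and Pgd at 193 ± 11.5 FPKM in untreated TG macrophages and Rpia at 10.2 ± 2.18. They were not below glycolysis as a whole. In the same libraries Taldo1 was near Tpi1 (240.5 ± 101), and Pgd and Tkt (128 ± 14.3) were above Pfkl (41.1 ± 5.59).

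Isozyme choice was measured as the share of each isozyme in the summed FPKM of its family, in 8 families. Only 1 isozyme of each family was tested: Pfkfb3, Hk2, Ldha, Slc16a3, Aldoa, Pfkl, Slc2a1 and Eno1. The test was an exact 2-sided permutation test within injection (400 arrangements, smallest possible p 0.005), adjusted over the 8 families. The share of the tested isozyme changed with SPARC in 5 of the 8. The largest shift was in the PFKFB family. Pfkfb3 made up 56.9, 41.5 and 45.6% of it in untreated TG libraries and 88.2, 75.7 and 78.9% with SPARC. In IL4c libraries the Pfkfb3 shares were 59.96, 64.6 and 49.9% untreated and 82.97, 83.3 and 75.1% with SPARC. The groups did not overlap in either kind, and the mean difference was 27.6 percentage points (adjusted p = 0.0133). Over the same groups the mean share of Pfkfb4 went from 36.7% ± 7.06 to 13.2% ± 5.55 in TG and from 22.2% ± 5.12 to 12.5% ± 3.89 in IL4c macrophages.

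Hk3 was the leading hexokinase in all 4 groups. Its mean share was 74.3% ± 13 in untreated TG, 58.8% ± 9.24 in TG with SPARC, 65.4% ± 6.27 in untreated IL4c and 58.1% ± 3.04 in IL4c with SPARC. Hk2 went from 16.9, 9.74 and 9.66% to 31.9, 24.3 and 23.5% of the family in TG libraries and from 18.1, 18.4 and 12.01% to 23.6, 24.9 and 23.3% in IL4c libraries. The Hk2 share was higher by 11.1 points with SPARC (adjusted p = 0.0133), with no overlap within an injection. Ldha already made up 95.4% ± 3.56 of lactate dehydrogenase in untreated TG and 98.3% ± 0.856 in untreated IL4c macrophages, and reached 98.6% ± 0.163 and 99.7% ± 0.0646 with SPARC, a mean gain of 2.31 points (adjusted p = 0.0133). The Slc16a3 share of the 2 monocarboxylate transporters was 86.7% ± 3.03 in untreated TG and 94.6% ± 2.91 in TG with SPARC. In IL4c macrophages it was 82.4% ± 3.71 and 86.9% ± 3.10, and over both kinds it was 6.19 points higher with SPARC (adjusted p = 0.032). The Aldoa share of the 2 aldolases went the other way by 0.514 points (−0.514, adjusted p = 0.03), from 99.5% ± 0.213 to 98.9% ± 0.106 in TG and from 99.3% ± 0.178 to 98.9% ± 0.401 in IL4c macrophages.

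In the other 3 families the share of the tested isozyme did not pass. Pfkl made up 53.5% ± 9.93 of phosphofructokinase in untreated TG and 71.1% ± 6.25 in TG with SPARC, and 73.8% ± 7.99 and 73.00% ± 5.08 in IL4c macrophages (mean difference 8.39 points, adjusted p = 0.213). The Slc2a1 share of the 3 glucose transporters was 36.8, 85.1 and 80.6% in untreated TG libraries, the lowest by far in the library numbered 1, and 60.8, 79.1 and 76.4% with SPARC (mean difference over both kinds 0.932 points, adjusted p = 0.945). The small share of Slc2a3 was not tested. It went from 2.89% ± 0.910 to 0.750% ± 0.391 in TG and from 1.08% ± 0.446 to 0.219% ± 0.0374 in IL4c macrophages, without overlap within an injection. Eno1 held at least 96.5% of enolase in every library (mean difference 0.717 points, adjusted p = 0.377). Between injections, the IL4c macrophages had a higher share of Eno1 by 1.23 points, a higher share of Ldha by 1.99 points and a lower share of Slc16a3 by 6.03 points (−6.03, adjusted p = 0.04 for each), and the Pfkl share differed by 11.1 points (adjusted p = 0.12). For these, injection labels were permuted within each treatment, which takes the 2 libraries of a numbered pair as independent. Such pairs deviated together and no version kept them whole, so these p-values may be too small.

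With the numbers as pairs, each of the 5 SPARC shifts went the same way in 6 of 6 pairs, which gives the smallest p that 64 arrangements allow (0.0312). With 5 of the 8 families at that p the adjusted p was 0.05, which is not under the threshold. The SPARC shifts of Pfkfb3 and Hk2 kept their call when any 1 library was left out. For the aldolases (Aldoa) the call was lost without TG SPARC 1, 2 or 3 or IL4c SPARC 1 (adjusted p from 0.05 to 0.0667), and for lactate dehydrogenase (Ldha) without TG SPARC 1, 2 or 3 (adjusted p = 0.072). For the monocarboxylate transporters (Slc16a3) it was lost without TG untreated 1 or 3, TG SPARC 1, 2 or 3 or IL4c SPARC 1 or 2 (adjusted p from 0.056 to 0.072). The injection shifts were lost more readily. Eno1 lost its call without TG untreated 2, TG SPARC 2 or 3 or any 1 IL4c library (adjusted p from 0.0533 to 0.26). Ldha lost it without TG untreated 1 or 2, IL4c untreated 1, 2 or 3 or IL4c SPARC 2 or 3 (0.0533 to 0.26). Slc16a3 lost it without TG untreated 1 or 2, IL4c untreated 2 or 3 or IL4c SPARC 2 or 3 (0.0533 to 0.187).

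**Figure D4:**
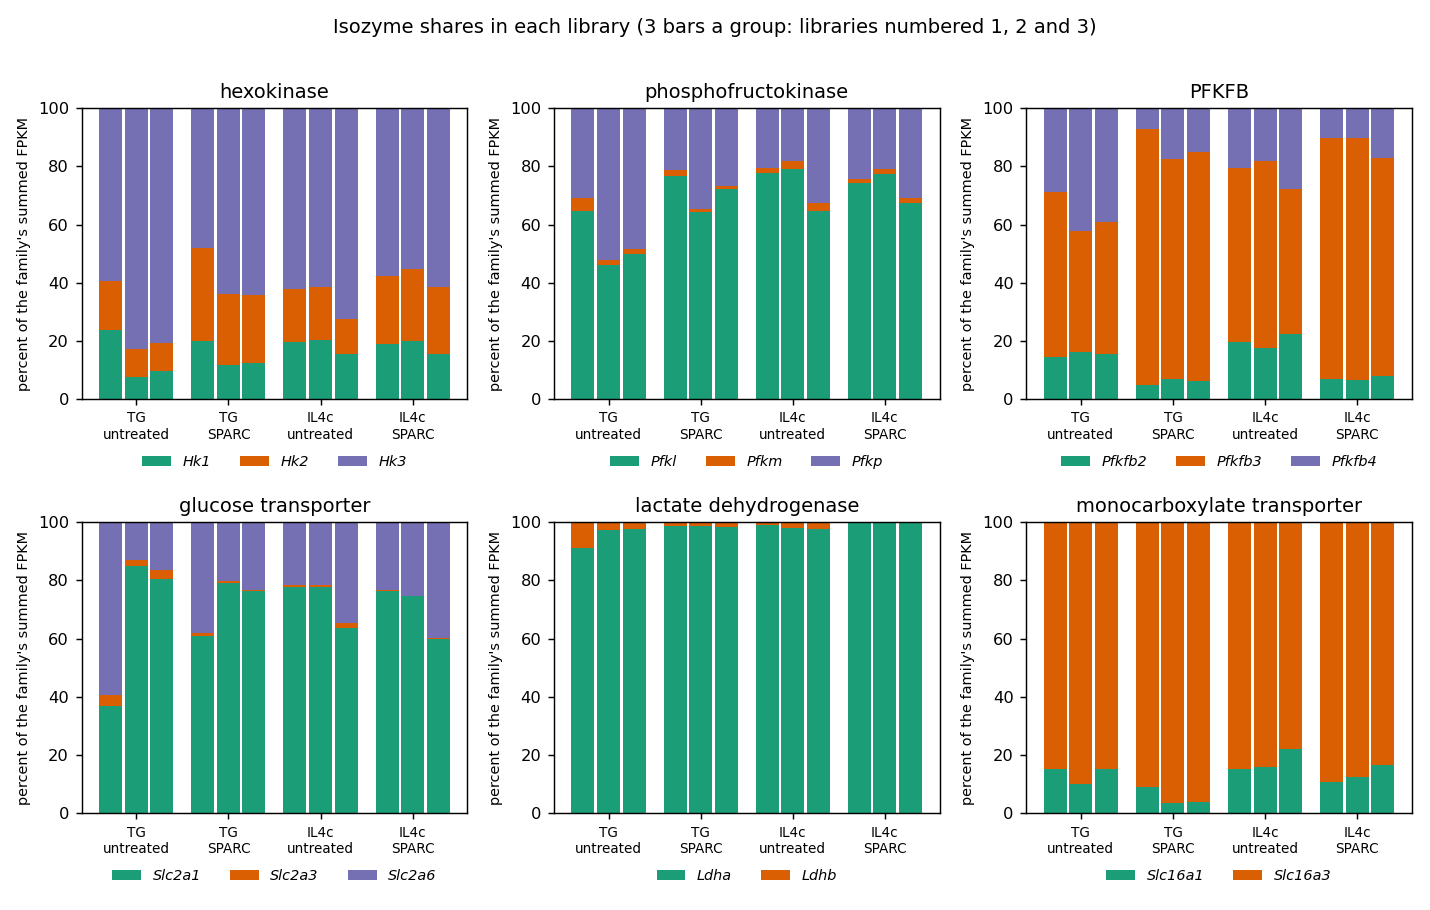
Percent of the family's summed FPKM held by each isozyme in each of the 12 libraries, for 6 families. Pfkfb3 (orange, top right) takes 75.1% to 88.2% of the PFKFB family with SPARC and 41.5% to 64.6% untreated, whereas Hk3 (purple, top left) has the largest hexokinase share in all 12 libraries.

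Untreated IL4c and TG macrophages were then compared, which shares its untreated libraries with the SPARC comparisons. Of the 34 genes, 6 were higher in untreated IL4c and 4 lower, where 10.2% and 10.8% of all genes were called. All of the higher genes, and all of the lower ones but Taldo1, belonged to uptake, glycolysis or lactate, which make up 27 of the 34. Pfkl was higher by 1.20 ± 0.18 (adjusted p = 0.00288) and Gpi1 by 0.74 ± 0.17 (adjusted p = 0.0164), both with no overlap in the CPM values given above. Aldoc was higher by 1.50 ± 0.41 (adjusted p = 0.0293), Gapdh by 0.71 ± 0.20 (adjusted p = 0.0356), Pfkfb2 by 0.46 ± 0.10 (adjusted p = 0.0134) and Slc16a1 by 0.83 ± 0.24 (adjusted p = 0.0367). The number was also used as a block across injections, although same-numbered libraries of different injections did not deviate together, so its results carry little weight. Slc16a1 did not pass with the number as a block (adjusted p = 0.0555), and Pdk1, at 0.88 ± 0.29 (adjusted p = 0.0596), did (adjusted p = 0.046). The background with that block was 11.7% higher and 12.6% lower. The lower genes were Slc2a3 (−1.22 ± 0.22 (adjusted p = 0.00584)), Pfkfb4 (−0.57 ± 0.15 (adjusted p = 0.025)), Eno2 (−3.59 ± 0.90 (adjusted p = 0.0212)) and Taldo1 (−0.65 ± 0.20 (adjusted p = 0.0436)), of which Eno2 and Taldo1 had groups that overlapped through the untreated TG library numbered 1.

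With SPARC in both, 1 of the 34 genes was higher in IL4c and 3 were lower, where 10.9% and 10.1% of all genes were called. Slc16a1 was higher by 1.20 ± 0.24 (adjusted p = 0.00812). Slc2a3 (−1.59 ± 0.22 (adjusted p = 0.00149)), Ldhb (−2.22 ± 0.35 (adjusted p = 0.00235)) and Pgd (−0.55 ± 0.15 (adjusted p = 0.0308)) were lower, each with no overlap. With the number as the same block across injections, Eno2 and Tkt were also lower (adjusted p = 0.0273 and 0.043), where 12.8% of all genes were higher and 12.4% lower. Pfkl, Gpi1, Aldoc and Gapdh, which were higher in untreated IL4c macrophages, were at 0.19 ± 0.18, −0.09 ± 0.17, 0.43 ± 0.39 and −0.11 ± 0.20 here and did not pass.

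Without both TG libraries numbered 1, 10 of the 34 genes were higher and 5 lower in untreated IL4c macrophages, and 4 higher and 6 lower with SPARC. The background rose too, to 19.1% and 19.7% untreated and 17.7% and 18.5% with SPARC. Hk3, which was low in those 2 libraries, was called lower in untreated IL4c macrophages without them (adjusted p = 0.0022) and was at −0.79 ± 0.48 (adjusted p = 0.264) with all 12. Of the called genes, Taldo1 lost its untreated call without TG SPARC 1, 2 or 3, TG untreated 2 or 3, IL4c untreated 1 or 2 or IL4c SPARC 1, 2 or 3 (adjusted p from 0.0602 to 0.207). Gapdh lost it without TG untreated 1, 2 or 3, TG SPARC 3, IL4c untreated 1 or 2 or IL4c SPARC 2 (adjusted p from 0.0526 to 0.133), Pfkfb4 without TG untreated 2 or 3, IL4c untreated 1, 2 or 3 or IL4c SPARC 1 (adjusted p from 0.0503 to 0.114), and Slc16a1 without TG untreated 2, IL4c untreated 1 or 2 or IL4c SPARC 1 or 2 (adjusted p from 0.0517 to 0.122). Aldoc lost it without TG untreated 2 or 3 or IL4c untreated 1 or 2 (adjusted p from 0.0847 to 0.101), Eno2 without TG untreated 2 or 3 or IL4c untreated 1 or 2 (adjusted p from 0.0634 to 0.0855), and Gpi1 without TG untreated 3 or IL4c untreated 1 or 2 (adjusted p from 0.0519 to 0.0663). Pfkl, Slc2a3 and Pfkfb2 kept it in all 12. With SPARC, Pgd lost its call without TG SPARC 1 or 3 or IL4c SPARC 1 or 2 (adjusted p from 0.0535 to 0.113), while Slc16a1, Slc2a3 and Ldhb kept it in all 12. Total-count scaling moved the median of all genes untreated from −0.05 to −0.16, and there Pfkfb2 was not called (adjusted p = 0.0654).

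Calls were gained in other fits that left out 1 library. Untreated, Slc2a6, Hk3, Pfkm and Rpia were each called without TG untreated 1 (adjusted p = 0.0388, 0.0339, 0.00833 and 0.038), and Pdk1 without TG SPARC 1, IL4c untreated 3 or IL4c SPARC 3 (adjusted p from 0.0302 to 0.0491). With SPARC, Rpia was called without TG SPARC 1 (adjusted p = 0.0349), Eno2 without TG untreated 1 or TG SPARC 1 (adjusted p from 0.0176 to 0.0468), and Tkt without TG untreated 1, IL4c untreated 3 or IL4c SPARC 3 (adjusted p from 0.0278 to 0.0478).

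**Figure D5:**
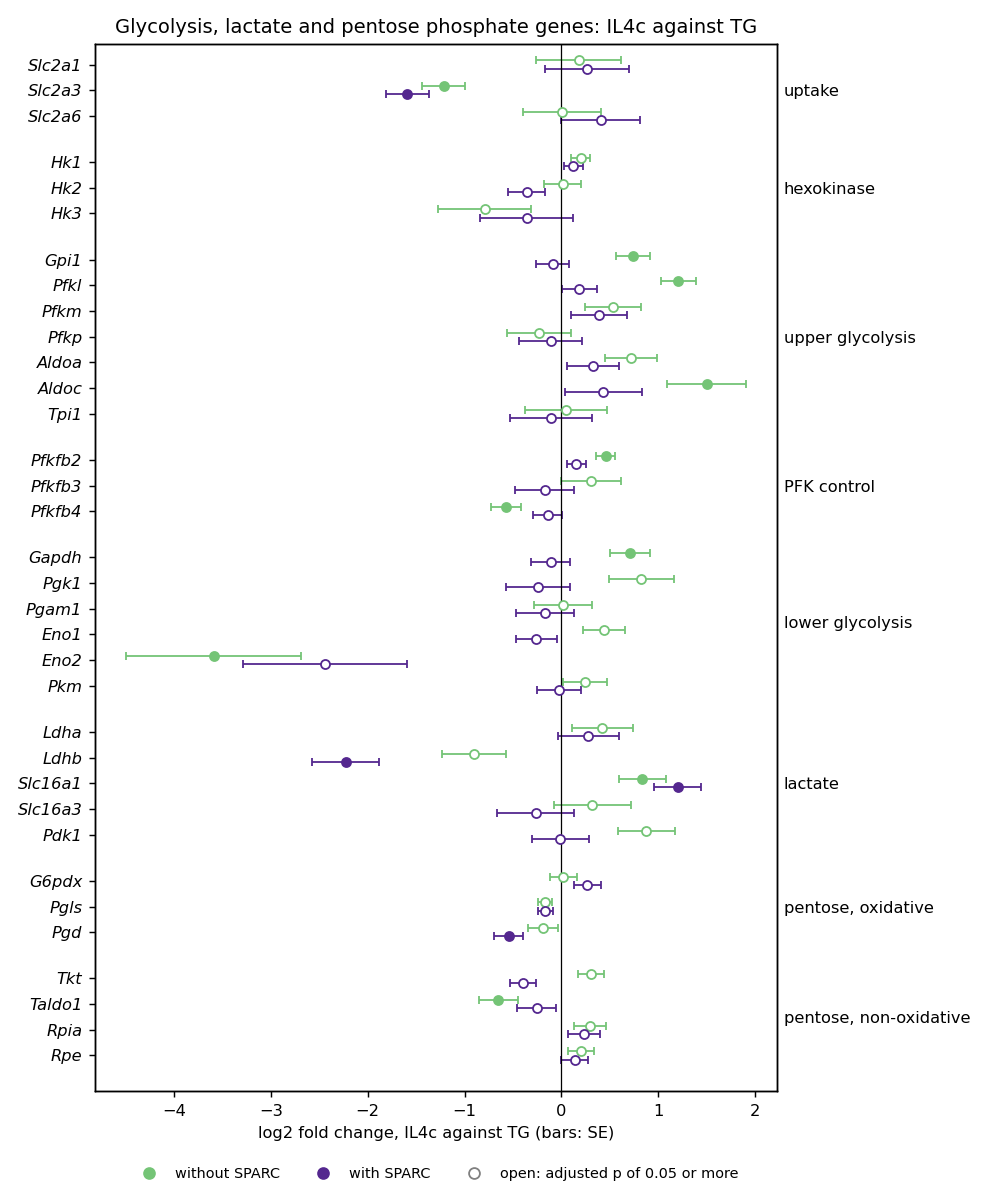
Log2 fold change of each of the 34 tested genes in IL4c against TG macrophages, without SPARC (green) and with SPARC (purple); bars are standard errors and filled points have an adjusted p under 0.05. Pfkl, Gpi1, Aldoc and Gapdh lie right of 0 without SPARC and nearer 0 with it, while Slc2a3 and Ldhb lie left of 0 in both.

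The difference of the 2 SPARC responses was tested directly. With edgeR 0 of the 34 genes passed, as did 0 of all 15232 (0% called in either direction), and 7 of the 34 had an unadjusted p under 0.05 beside 10.6% of all genes. These 7 all had a lower log2 fold change in IL4c than in TG macrophages, through a smaller rise or, for Ldhb and Tkt, a fall. They were Pfkl (−1.02 ± 0.25 (adjusted p = 0.201)), Tkt (−0.70 ± 0.19 (adjusted p = 0.229)), Gpi1 (−0.83 ± 0.25 (adjusted p = 0.256)), Gapdh (−0.82 ± 0.29 (adjusted p = 0.341)), Ldhb (−1.32 ± 0.47 (adjusted p = 0.345)), Eno1 (−0.70 ± 0.30 (adjusted p = 0.454)) and Pgk1 (−1.07 ± 0.47 (adjusted p = 0.455)). DESeq2 called 2 of them, Pfkl and Tkt, lower, where it called 1.14% of the genes it tested lower and 0.992% higher. Limma on log2(FPKM + 1) called 0.00806% lower and 0.121% higher, none of the 34 among them. Within numbered pairs 7 genes were called lower in IL4c macrophages and 0 higher, where 1.60% of all genes were called lower and 1.50% higher. They were Gpi1, Pfkl, Gapdh, Pgk1, Eno1, Pdk1 and Tkt, with adjusted p from 0.0211 for Tkt to 0.0442 for Eno1. Without both TG libraries numbered 1, Slc16a1 was called with the higher log2 fold change in IL4c (adjusted p = 0.046) and Pfkfb2 with the lower one (adjusted p = 0.0365). In that fit 2.31% and 3.09% of all genes were called. Pfkfb2 was also called without TG untreated 1 (adjusted p = 0.0471). The response to SPARC in these 2 kinds of macrophage was thus not shown to differ for Slc2a1, Slc2a6, Hk1, Hk2, Pfkfb3, Pkm, Ldha or Slc16a3, whose differences were 0.08 ± 0.62, 0.40 ± 0.57, −0.08 ± 0.14, −0.37 ± 0.27, −0.48 ± 0.43, −0.27 ± 0.32, −0.14 ± 0.44 and −0.58 ± 0.56 in that order.

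A list of 70 other genes of the same pathways, of which 52 were tested, changed in both directions. In TG macrophages 8 rose and 3 fell with SPARC, where 6.73% of all genes were called higher and 4.52% lower. In IL4c macrophages 6 rose and 10 fell, where 15.1% and 12.7% were called. The median log2 fold changes were 0.07 and 0.00. Txnip, which restrains glucose uptake, fell by 0.76 ± 0.21 (adjusted p = 0.0425) in TG macrophages and fell by 0.99 ± 0.21 (adjusted p = 0.00651) in IL4c macrophages. Tigar, a fructose-2,6-bisphosphatase that directs sugar to the pentose phosphate pathway, rose by 0.77 ± 0.17 (adjusted p = 0.0197) and 0.92 ± 0.17 (adjusted p = 0.00376). H6pd, the pentose phosphate dehydrogenase of the endoplasmic reticulum, changed by 0.68 ± 0.31 (adjusted p = 0.188) in TG and rose by 1.02 ± 0.31 (adjusted p = 0.0336) in IL4c macrophages. Pdk4, another pyruvate dehydrogenase kinase, was at 0.179 ± 0.152 and 0.0400 ± 0.0467 CPM in TG macrophages without and with SPARC, and at 1.89 ± 1.19 and 0.0843 ± 0.0613 CPM in IL4c macrophages, where it fell (adjusted p = 0.00467). Within numbered pairs H6pd and Pdk4 were also called in TG macrophages (adjusted p = 0.00385 and 0.0286). The TG means of Pdk4 were close to the 0.0707 to 0.0974 CPM that 3 counts make, so its TG call rests on a few counts. Pdk4 passed the filter on low counts only because of its untreated IL4c libraries. The TG call of Txnip was lost without TG untreated 1, 2 or 3, TG SPARC 1, 2 or 3, IL4c untreated 1, 2 or 3 or IL4c SPARC 1 or 2 (adjusted p from 0.0582 to 0.141) and with RLE scaling (adjusted p = 0.0501), and that of Tigar without TG SPARC 1 or 3 or TG untreated 3 (adjusted p from 0.0502 to 0.0671). H6pd lost its IL4c call without IL4c untreated 1, 2 or 3 or IL4c SPARC 2 or 3 (adjusted p from 0.0592 to 0.0941). Bsg was not called in TG macrophages with the 2 TG groups fitted alone (adjusted p = 0.0555).

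The smallest p-values of that list in TG macrophages were those of Phka2, a regulatory subunit of phosphorylase kinase, which fell by 0.82 ± 0.09 (adjusted p = 7.26e-04), and of Gpd2 and Pdk3. Gpd2, mitochondrial glycerol-3-phosphate dehydrogenase, rose by 0.99 ± 0.14 (adjusted p = 0.00342) and Pdk3 by 0.90 ± 0.13 (adjusted p = 0.0039). In IL4c macrophages they were those of Phka2, which fell by 0.91 ± 0.09 (adjusted p = 1.46e-04), and of Slc16a7 and Gys1. Slc16a7, which encodes the monocarboxylate transporter MCT2, fell by 1.71 ± 0.21 (adjusted p = 4.89e-04). Gys1, glycogen synthase, rose by 1.90 ± 0.35 (adjusted p = 0.00367). Gys1 also rose in TG macrophages, from 19.6 ± 5.03 to 105 ± 30.2 CPM. Between injections 10 were higher and 6 lower in untreated IL4c, where 10.2% and 10.8% of all genes were called. They were led by Ppp1r3c (1.07 ± 0.586 against 0.0820 ± 0.0514 CPM), Pdha1 (0.54 ± 0.09 (adjusted p = 0.00542)) and Phkg2 (−0.49 ± 0.09 (adjusted p = 0.00686)). The TG level of Ppp1r3c was that of about 3 counts (0.0707 to 0.0974 CPM), too low to pass the filter on low counts by itself. With SPARC in both, 3 were higher and 9 lower, where 10.9% and 10.1% of all genes were called. These were led by Slc16a7 (−1.42 ± 0.21 (adjusted p = 0.00199)), Gpd2 (−0.80 ± 0.14 (adjusted p = 0.00398)) and Pygb (−0.53 ± 0.09 (adjusted p = 0.0046)). In the difference of the responses edgeR called 0 of the 52. Of these, 1 with the higher and 7 with the lower log2 fold change in IL4c macrophages had an unadjusted p under 0.05, beside 10.6% of all genes. DESeq2 called Gpd2 (adjusted p = 0.0112).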

How the data were processed

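Polyadenylated RNA of 12 libraries was sequenced. Per the submitters' processing notes, CASAVA and bcl2fastq 1.8.4, STAR and RSEM were used. The sources used here do not state the genome build, annotation or strand setting. The authors deposited RSEM's estimated counts (expected count per gene, 7.97% of them not whole) and FPKM. RSEM shares reads between similar sequences: 13 of the 35 genes had counts that were not whole in at least 1 library.

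The counts were rounded to whole numbers and filtered with filterByExpr (minimum count 10), scaled by TMM and fitted with edgeR 4.0.16 (R 4.3.3) as 4 groups with 8 residual degrees of freedom, which gave a common biological coefficient of variation of 0.308. P-values were adjusted by Benjamini-Hochberg over 15232 genes, with a threshold of 0.05, and the SE is the size of the log2 fold change over the square root of the F value. Counts simulated with 200 changed genes served as a test of this fit. They had the same dispersion for every gene and no shared deviation of numbered libraries, so they cannot test the fit under such deviations. CPM use the TMM-scaled totals. Isozyme shares used the deposited FPKM.

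The members and lists were chosen with earlier results of these data known. All 35 genes are named; of 70 other pathway genes, Txnip, Bsg, Tigar, H6pd and Pdk4 and the 3 smallest p among those called in each comparison are named, and Gys1 in TG macrophages was added after its values were seen. As alternatives, limma 3.58.1 was run on log2(FPKM + 1) or log2(FPKM + 0.1) and DESeq2 1.42.0 on the counts, with scaling by RLE or totals, other filters, the compared groups fitted alone, a replicate block and leaving out libraries. Same-numbered libraries of an injection deviated together (r from 0.342 to 0.735 in 6 pairs, against −0.659 to 0.507 for different numbers), and not across injections (−0.178 to 0.250), so the SPARC comparisons were also blocked by pair. In the injection comparisons the block was the number across injections. There different numbers gave r from −0.281 to 0.225, so these values give no ground for that block. Libraries of a group differed by more than sampling noise (chi-square per degree of freedom at least 10.6). In the TG groups this value was 262 to 391 against the library numbered 1, and 20.4 and 10.6 between the others. In the IL4c groups it was 105 to 115 against the library numbered 3, and 23.7 and 33.2 between the others. Gene positions are from GENCODE M21 (GRCm38), in which all 35 identifiers matched with versions ignored and 24 with them. Promoter windows are from RefSeq GRCm38.p6.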

Additional observations from a re-analysis of the deposited data

How the results depend on the processing

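Over 24 alternatives, 9393 of 10106 values of single genes kept their side of the threshold, 270 gained a call and 443 lost one. Of the 9393, 378 were not called and changed sign, as did 11 shares that were not called. No called value changed sign. The cause of the changes in this paragraph was not tested. In TG macrophages with SPARC, 1 gene was lower with DESeq2, with the replicate block and without both TG libraries numbered 1, and 11 were higher with the compared groups fitted alone, which uses fewer samples. In IL4c macrophages with SPARC, 24 were higher and 5 lower with the block, and 1 was lower with log2(FPKM + 1) and no filter. In untreated IL4c against TG, 3 were higher and 1 lower with no filter on counts, 3 higher with log2(FPKM + 1), 2 higher with log2(FPKM + 1) and no filter, 2 lower with the groups fitted alone, 10 higher without both TG libraries numbered 1 and 2 lower without both IL4c libraries numbered 3. With SPARC in both, 5 were lower with DESeq2 and with the block, 4 higher and 6 lower without both TG libraries numbered 1, and 2 higher without both IL4c libraries numbered 3. For the difference of the responses, 2 were lower with DESeq2, 7 with the block, and 1 lower and 1 higher without both TG libraries numbered 1.

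With each library left out in turn, the higher and lower counts ranged from 12 to 19 and 0 to 1 for SPARC in TG, 9 to 17 and 1 to 4 for SPARC in IL4c, 2 to 8 and 1 to 5 for the untreated injections, 1 to 2 and 2 to 5 for the injections with SPARC, and 0 to 0 and 0 to 1 for the difference. The share shifts with SPARC, in points, were 25.5 to 29.8 for Pfkfb3, 9.79 to 12.3 for Hk2, 1.28 to 2.87 for Ldha, 5.13 to 7.07 for Slc16a3 and −0.627 to −0.435 for Aldoa. Between injections they were 0.898 to 1.69 for Eno1, 0.964 to 2.55 for Ldha and −6.87 to −4.97 for Slc16a3. With the replicate block the shifts stayed at 27.6 for Pfkfb3, 11.1 for Hk2, 2.31 for Ldha, 6.19 for Slc16a3 and −0.514 for Aldoa, each at the smallest p of 6 pairs, 0.0312, or 0.05 adjusted. Without both TG libraries numbered 1 they were −0.545 for Aldoa and 6.61 for Slc16a3 with SPARC, and 1.76 for Eno1, 1.01 for Ldha and −7.29 for Slc16a3 between injections, none called. Total-count scaling moved the balance of all called genes, from 1025 higher and 689 lower to 758 and 938 for SPARC in TG, and from 1548 and 1649 to 1154 and 2790 for the untreated injections. Apart from the genes named in the report, the block changed no call of the 34 genes. With 3 libraries a group, genes near the threshold are not resolved, and Fbp1, at 0 to 11 counts, was below what this depth can test.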
